A study of Mus musculus with 8 samples.

Results

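The genes described here encode mainly structural proteins of the cardiac sarcomere and its anchoring points: the thin and thick filaments, titin, the Z-disc, the costamere and the M-band. The kinase gene Mylk3 and the myosin assembly genes Unc45b and Smyd1 are counted with the thick filament. The 40 members were chosen by symbol, through the Ensembl mouse identifiers of the count table, from 33105 genes in all. They comprised 8 thin filament, 7 thick filament, 16 Z-disc, 6 costamere and 2 M-band genes, with titin counted on its own. Of the 40, 39 passed the filter on low counts and were among 16603 genes tested, and Tnni1 did not pass. Heart tissue of C57BL/6J mice was sequenced after a Sham procedure or after surgery that causes mitral regurgitation (MR), backflow through a leaking mitral valve, with 4 libraries per group. The study asked about the signalling behind hypertrophy from volume overload and about genes that characterise it. None of the sources used here gives the age, the time after the operation or the part of the heart taken. The labels name no allele, transgene or drug, and they do not say what the Sham procedure involved. The library numbers in the labels form separate blocks in the groups, so that a difference in handling that follows them cannot be told apart from MR.

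A sarcomere shortens when myosin heads on the thick filament pull on actin in the thin filament. Calcium binding to troponin C moves the troponin and tropomyosin strand and frees the myosin sites, and myosin light chains and myosin binding protein C tune the heads. The Z-disc anchors thin filaments of neighbouring sarcomeres through alpha-actinin, the M-band crosslinks thick filaments, titin spans from one to the other, and costameres tie the Z-disc to the membrane. In the adult heart several of these proteins have a cardiac form and a relative used mainly by fetal, skeletal or non-muscle cells.

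The stretches upstream of the transcription start are shown for 5 members, because the results turn on troponin and light chain genes that share a complex yet had different values, and on Mybpc2. They are RefSeq sequences of GRCm38, 5′ to 3′ on the gene's strand, and positions are counted back from the RefSeq start. They cover chr1:135836084-135836333 for Tnnt2 (plus strand), chr7:4522529-4522694 for Tnni3 (minus strand), chr14:31208062-31208311 for Tnnc1 (plus strand), chr9:110763428-110763645 for Myl3 (plus strand) and chr7:44524670-44524919 for Mybpc2 (minus strand). Stretches under 250 bases were trimmed at an untranslated part of an annotated transcript, and those of Tnni3 and Myl3 lie inside the GENCODE span of their genes, which includes longer transcripts. No stretch is shown for Myl2, the light chain gene lower in MR at unadjusted p. Its RefSeq windows lie far upstream of its GENCODE start, and none were found for Tcap and Myom2. Capitals mark matches on either strand to 3 motifs. The M-CAT element was searched by its core, CATTCC. The motif of GATA factors was searched by the letters GATAA. The CArG box of serum response factor is named without its letters.
Tnnt2: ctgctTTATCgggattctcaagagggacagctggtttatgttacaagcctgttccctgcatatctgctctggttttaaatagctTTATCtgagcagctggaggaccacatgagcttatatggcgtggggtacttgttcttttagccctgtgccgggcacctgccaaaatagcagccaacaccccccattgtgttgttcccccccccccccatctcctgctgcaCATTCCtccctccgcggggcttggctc
Tnni3: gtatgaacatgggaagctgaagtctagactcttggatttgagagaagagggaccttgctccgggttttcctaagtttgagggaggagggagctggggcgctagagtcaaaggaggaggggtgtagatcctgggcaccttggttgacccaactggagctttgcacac
Tnnc1: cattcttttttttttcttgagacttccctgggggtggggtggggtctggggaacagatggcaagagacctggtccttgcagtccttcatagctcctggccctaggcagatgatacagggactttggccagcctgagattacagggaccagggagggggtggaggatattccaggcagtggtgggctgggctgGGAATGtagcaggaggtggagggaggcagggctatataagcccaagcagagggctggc
Myl3: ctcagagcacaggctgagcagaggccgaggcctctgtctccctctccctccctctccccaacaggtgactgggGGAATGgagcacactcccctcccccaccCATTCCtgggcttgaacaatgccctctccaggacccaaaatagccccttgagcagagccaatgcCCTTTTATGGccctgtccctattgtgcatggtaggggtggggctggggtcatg
Mybpc2: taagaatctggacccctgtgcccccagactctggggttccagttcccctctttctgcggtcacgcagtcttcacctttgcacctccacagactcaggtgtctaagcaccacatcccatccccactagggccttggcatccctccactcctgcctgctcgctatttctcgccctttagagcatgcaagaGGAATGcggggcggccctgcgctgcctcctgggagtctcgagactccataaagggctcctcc
Tnnt2 held 1 M-CAT match beginning 27 bases before the start and 2 GATA matches. Tnnc1 held 1 M-CAT match 58 bases before it, Mybpc2 held 1 at 62 bases, and Myl3 held 2 M-CAT matches and 1 CArG box. The Tnni3 stretch held none of these letters, while the part of its window outside the stretch shown held a GATA match. RefSeq windows of 300 bases around a start were found for 36 members, 50 windows in all. An M-CAT core occurred in 28% of these windows and in 14.7% of all 32851 mouse windows, a GATA match in 36% and 25.4%, the MEF2 site, named without its letters, in 12% and 3.19%, and a CArG box in 18% and 1.63%. Several genes have more than 1 window, windows of 1 gene can overlap, and MEF2 and CArG matches can overlap. A match is a description of letters and not of binding.

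None of the 39 tested members passed a false discovery rate of 0.05 in the edgeR quasi-likelihood test, against 76 of 16603 genes (0.458%). At an unadjusted p under 0.05, 6 members were lower in MR (Tnnt2, Tnni3, Myl2, Mylk3, Tcap and Myom2), which is 15.4% of the members beside 7.29% of all genes tested. On the same scale 3 members were higher (Mybpc2, Pdlim3 and Flnc), or 7.69% beside 7.78% of all genes, a share near the background. The MR and Sham ranges did not overlap for Myl2 and Mylk3, both lower (3.91% of all genes), and for Pdlim3, higher (4.19% of all genes). On the log2 scale MR minus Sham was negative for 21 members and positive for 18, with a median of −0.01 beside 0.002 for all genes tested. DESeq2 called 5 of these members (3.77% of all genes), with Tnnt2, Tnni3, Myl2 and Tcap lower and Mybpc2 higher. The edgeR test called the same 5 without Sham replicate 3 (5.28% of all genes), and 7 with no filter on low counts (3.06% of all genes), which added Myom2, lower, and Flnc, higher. Limma-voom, run with a quality weight for each library, called 0 members (2.75% of all genes), with 6 lower and 3 higher at its unadjusted p. In bulk tissue, fewer cells of a type and less RNA per cell cannot be told apart.

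The compartments differed in their medians without a test between them. The median log2 difference was −0.10 over the 7 tested thin filament members, −0.07 over the 7 thick filament members, 0.004 over the 16 Z-disc members, 0.04 over the 6 costamere members and −0.30 over the 2 M-band members. The thick filament median is the value of Smyd1, a myosin assembly gene. Members lower at unadjusted p came from the troponin complex, the myosin regulatory light chain and its kinase, the Z-disc cap protein of titin and the M-band. Without Sham replicate 1 the thin filament median was 0.03, and without MR replicate 2 the costamere median was 0.11.

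**Figure D1:**
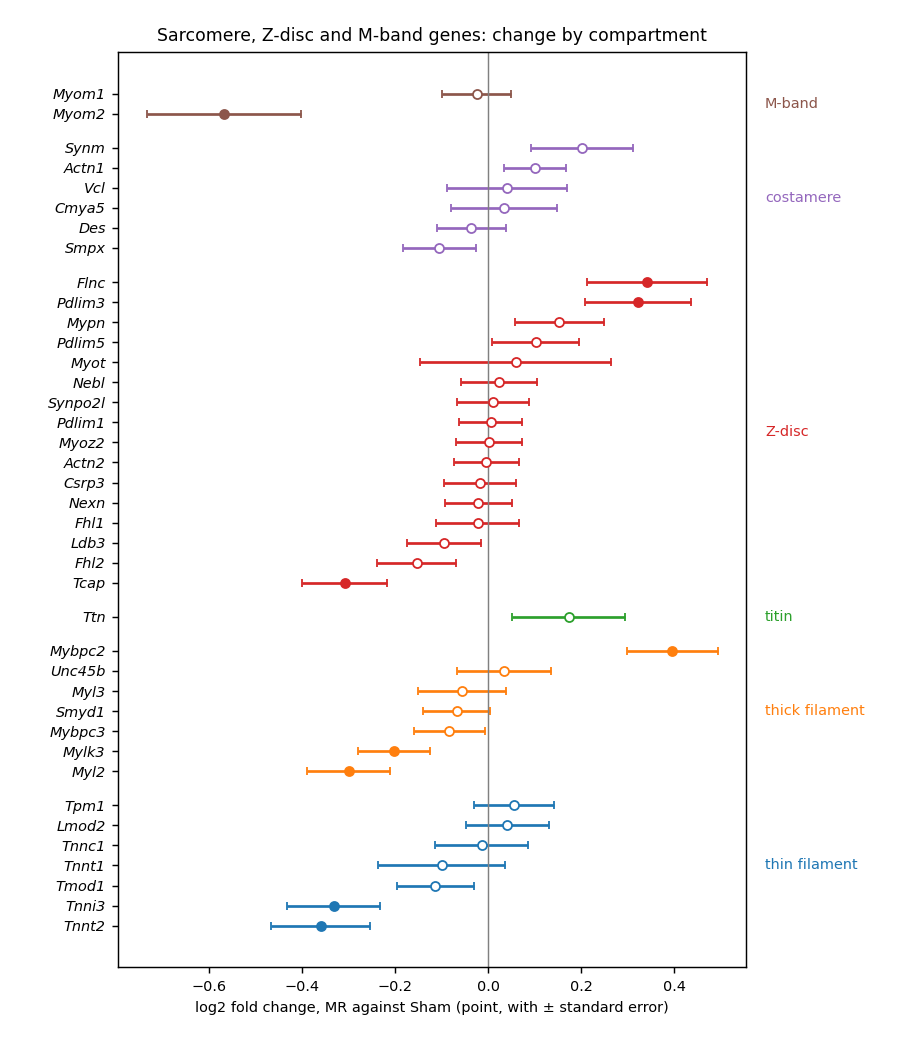
The horizontal axis gives the log2 fold change of MR against Sham for each of the 39 tested members, with bars of 1 standard error, ordered by compartment; filled points mark an unadjusted p under 0.05. The 6 filled points on the left are Tnnt2, Tnni3, Myl2, Mylk3, Tcap and Myom2, the 3 on the right are Mybpc2, Pdlim3 and Flnc, and Myom2 lies farthest from 0.

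Levels are in CPM, counts scaled to a common library total after TMM, an adjustment of the totals between libraries. Set per kilobase of transcript so that genes can be compared, the Sham levels were highest for Myl2 (7872 CPM per kb), Myl3 (4756), Tnnt2 (4610), Tnni3 (3583), Tpm1 (3525) and Tnnc1 (2190). The lowest were Mybpc2 (4.72 CPM per kb), Synm (1.40) and Tnni1 (0.122). Small proteins of the filaments thus led the order, and its end held synemin and forms typical of other muscles. The members together took 5.07% to 5.58% of the counts of a library. Summed levels were 51580 to 57728 CPM in Sham and 49761 to 53021 CPM in MR, so the groups overlapped.

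In the thin filament, 2 of 7 tested members were lower at unadjusted p, both of them troponin subunits. Tnnt2 (ENSMUSG00000026414, chr1:135836354-135852260, plus strand) encodes cardiac troponin T, which fixes the troponin complex to tropomyosin. Its level was 6468, 5251, 4644 and 5765 CPM over Sham replicates 1 to 4, and 4951, 4302, 3914 and 4076 CPM over MR replicates 1 to 4. Each MR value but that of replicate 1 lay below the whole Sham range. MR minus Sham in log2 units was −0.36 (SE 0.106, adjusted p = 0.128), and with the trend of each library with transcript length removed it was −0.32 (adjusted p = 0.0662). Tnni3 (ENSMUSG00000035458, chr7:4518305-4524229, minus strand) encodes cardiac troponin I, the inhibitory subunit. Its level was 3817, 3135, 2758 and 3360 CPM over Sham replicates 1 to 4, and 2758, 2742, 2315 and 2566 CPM over MR replicates 1 to 4. MR replicate 1 and Sham replicate 3 met at the border of the groups, and the other MR libraries lay below all Sham libraries. The log2 difference was −0.33 (SE 0.0998, adjusted p = 0.132), and −0.28 with the length trend removed (adjusted p = 0.0607).

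The third subunit, troponin C, had other values. Tnnc1 (ENSMUSG00000091898, chr14:31208312-31211729, plus strand) stood at 1934, 1444, 1432 and 1506 CPM over Sham replicates 1 to 4, and 1594, 1691, 1523 and 1449 CPM over MR replicates 1 to 4. Sham replicate 1 was high, and the other Sham values lay among the MR values or below them. On the log2 scale MR minus Sham was −0.01 (SE 0.100, adjusted p = 0.970). Tnnc1 was singled out after its values were seen, as the partner of Tnnt2 and Tnni3. Tmod1 encodes tropomodulin, which caps the pointed end of the thin filament. Its level was 182, 221, 196 and 216 CPM over Sham replicates 1 to 4, and 202, 172, 179 and 199 CPM over MR replicates 1 to 4. The groups overlapped, with a log2 difference of −0.11 (SE 0.0826, adjusted p = 0.556). Its exons share 1287 bases with Tstd2 on the opposite strand, and it is not stated whether counting used strand. Tnnt1, the slow skeletal troponin T, stood at 13.001, 8.01, 8.47 and 10.6 CPM over Sham replicates 1 to 4, and 9.41, 10.2, 9.25 and 8.52 CPM over MR replicates 1 to 4. These overlapping values gave a log2 difference of −0.10 (SE 0.137, adjusted p = 0.780). Tnni1, the slow skeletal and fetal troponin I, had 7, 2, 4 and 12 counts in Sham and 9, 14, 11 and 7 in MR, where 3 counts are the limit that a count of 0 allows. Tpm1, the main cardiac tropomyosin, stood at 6691 ± 651 CPM for Sham and 6953 ± 444 CPM for MR (SD, n = 4 here and below). Lmod2, leiomodin, which lengthens thin filaments at the pointed end, stood at 614 ± 57.8 CPM for Sham and 631 ± 59.5 CPM for MR.

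In the thick filament, 2 of 7 members were lower and 1 was higher at unadjusted p. Myl2 (ENSMUSG00000013936, chr5:122100951-122113472, plus strand) encodes the ventricular regulatory light chain of myosin. Its level was 8009, 6836, 6372 and 6776 CPM over Sham replicates 1 to 4, and 5860, 6138, 5609 and 5132 CPM over MR replicates 1 to 4. All MR values lay below all Sham values. MR minus Sham in log2 units was −0.30 (SE 0.0890, adjusted p = 0.129), and −0.25 with the length trend removed (adjusted p = 0.0572). Mylk3 (ENSMUSG00000031698, chr8:85324303-85386345, minus strand) encodes the cardiac myosin light chain kinase, which phosphorylates the protein made from Myl2. Its level was 718, 706, 686 and 805 CPM over Sham replicates 1 to 4, and 667, 624, 655 and 589 CPM over MR replicates 1 to 4. Here too the groups did not overlap, and the log2 difference was −0.20 (SE 0.0770, adjusted p = 0.228). No alternative setting called Mylk3.

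Mybpc2 (ENSMUSG00000038670, chr7:44501699-44524656, minus strand) encodes the fast skeletal form of myosin binding protein C, which binds the thick filament and reaches towards actin. Its level was 14.95, 16.7, 20.2 and 16.4 CPM over Sham replicates 1 to 4, and 19.9, 22.2, 24.0 and 23.6 CPM over MR replicates 1 to 4. Only Sham replicate 3 reached into the MR range. The log2 difference was 0.40 (SE 0.0975, adjusted p = 0.0804), the lowest p among the members. Without Sham replicate 3 it was 0.48 (adjusted p = 0.00750), in a fit where 5.28% of all genes passed. Without Sham replicate 1 it was 0.33 (adjusted p = 0.108), and with each library left out the adjusted p ran from 0.00750 to 0.243. Mybpc3, the cardiac form, stood at 2734, 3115, 3120 and 3078 CPM over Sham replicates 1 to 4, and 3058, 2743, 2773 and 2793 CPM over MR replicates 1 to 4. MR replicate 1 lay just below the 3 higher Sham libraries, and the log2 difference was −0.08 (SE 0.0765, adjusted p = 0.658). Myl3, the ventricular essential light chain, was added after its values were seen because it sits on the same myosin neck as the product of Myl2. Its level was 5335, 4221, 4111 and 4158 CPM over Sham replicates 1 to 4, and 4330, 4594, 4211 and 4005 CPM over MR replicates 1 to 4. Sham replicate 1 was high and the other Sham values lay inside the MR range, with a log2 difference of −0.06 (SE 0.0936, adjusted p = 0.823). The myosin chaperone gene Unc45b stood at 154 ± 5.92 CPM for Sham and 158 ± 27.4 CPM for MR. Smyd1, a muscle methyltransferase needed for thick filament assembly, stood at 591 ± 32.8 CPM for Sham and 563 ± 24.2 CPM for MR.

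Ttn (ENSMUSG00000051747, chr2:76703980-76982547, minus strand) encodes titin, the spring and ruler that runs from Z-disc to M-band. Its level was 4386, 6517, 6183 and 5808 CPM over Sham replicates 1 to 4, and 6815, 5294, 6699 and 6994 CPM over MR replicates 1 to 4. Sham replicate 1 was the lowest library and the groups overlapped. On the log2 scale MR minus Sham was 0.17 (SE 0.122, adjusted p = 0.545), 0.06 without Sham replicate 1 (adjusted p = 0.821), and −0.13 with the length trend removed (adjusted p = 0.437).

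**Figure D2:**
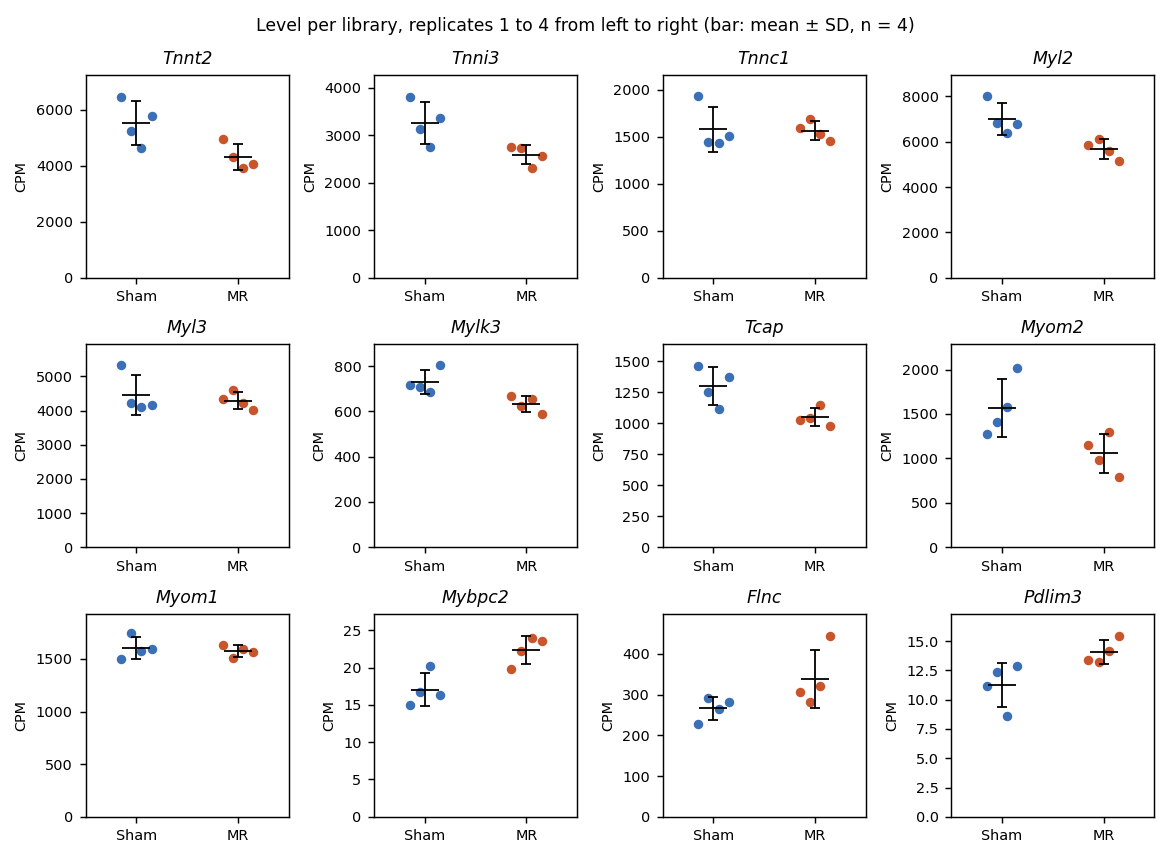
Each panel gives the level of a gene in CPM in the 4 Sham and the 4 MR libraries as points, with the mean and SD as a bar and the axis from 0. All MR points of Myl2 and Mylk3 lie below, and all MR points of Pdlim3 above, the Sham points; Tnnc1, Myl3 and Myom1 overlap.

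In the Z-disc, 1 of 16 members was lower and 2 were higher at unadjusted p. Tcap (ENSMUSG00000007877, chr11:98383811-98384953, plus strand) encodes telethonin, which caps the ends of paired titin molecules at the Z-disc. Its level was 1464, 1247, 1111 and 1373 CPM over Sham replicates 1 to 4, and 1027, 1040, 1146 and 981 CPM over MR replicates 1 to 4. MR replicate 3 lay above Sham replicate 3, and the other MR values lay below all Sham values. MR minus Sham in log2 units was −0.31 (SE 0.0918, adjusted p = 0.130), and −0.26 with the length trend removed (adjusted p = 0.0807). Flnc (ENSMUSG00000068699, chr6:29433256-29461883, plus strand) encodes the muscle filamin, a crosslinker of actin at Z-disc and costamere. Its level was 228, 292, 265 and 282 CPM over Sham replicates 1 to 4, and 307, 283, 319.8 and 443 CPM over MR replicates 1 to 4. MR replicate 4 stood above all others and MR replicate 2 lay within the Sham range. The log2 difference was 0.34 (SE 0.129, adjusted p = 0.229), and without MR replicate 4 it was 0.18. Pdlim3 (ENSMUSG00000031636, chr8:45885461-45919548, plus strand) encodes the actinin-associated LIM protein. Its level was 11.2, 12.3, 8.65 and 12.9 CPM over Sham replicates 1 to 4, and 13.4, 13.2, 14.2 and 15.4 CPM over MR replicates 1 to 4. All MR values lay above all Sham values, of which that of replicate 3 was the lowest. On the log2 scale MR minus Sham was 0.32 (SE 0.114, adjusted p = 0.196), and without Sham replicate 3 it was 0.21 (adjusted p = 0.221).

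Alpha-actinin 2, from Actn2, crosslinks thin filaments in the Z-disc. Its level was 1419, 1434, 1338 and 1379 CPM over Sham replicates 1 to 4, and 1364, 1429, 1312 and 1448 CPM over MR replicates 1 to 4. These were among the tightest values of any member, with a log2 difference of −0.0042 (SE 0.0705, adjusted p = 0.988). The other 12 Z-disc members had log2 differences between −0.15 and 0.15, none with an adjusted p below 0.421. Ldb3 (ZASP), a PDZ-LIM partner of actinin, stood at 835 ± 31.8 CPM for Sham and 782 ± 72.9 CPM for MR. Myoz2, which ties calcineurin to actinin, stood at 922 ± 38.6 CPM for Sham and 923 ± 38.5 CPM for MR. Nebl, the nebulin relative that binds thin filaments near the Z-disc, stood at 412 ± 30.6 CPM for Sham and 419 ± 33.5 CPM for MR. The values of these Z-disc partners overlapped between the groups. Myot, an actin crosslinker, stood at 54.2 ± 10.6 CPM for Sham and 56.3 ± 15.5 CPM for MR. Mypn, a partner of nebulin family proteins and actinin, stood at 129 ± 14.8 CPM for Sham and 143 ± 15.8 CPM for MR. Nexn, nexilin, an actin binding protein, stood at 616 ± 32.1 CPM for Sham and 607 ± 26.7 CPM for MR. Myot had the widest spread within MR of all tested members, with a coefficient of variation of 27.6%. Synpo2l, an actin-associated protein of the synaptopodin family, stood at 118 ± 7.50 CPM for Sham and 118 ± 10.1 CPM for MR. Csrp3, the muscle LIM protein, stood at 887 ± 56.1 CPM for Sham and 876 ± 51.4 CPM for MR.

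The LIM and PDZ-LIM adaptors besides Pdlim3 also overlapped between groups. Fhl1 stood at 111 ± 12.8 CPM for Sham and 109 ± 8.41 CPM for MR. Fhl2, which binds titin among other partners, stood at 1552 ± 176 CPM for Sham and 1395 ± 41.5 CPM for MR. Both are LIM-only proteins. Pdlim1 stood at 51.2 ± 1.68 CPM for Sham and 51.4 ± 3.45 CPM for MR. Pdlim5, also called ENH, stood at 699.9 ± 72.9 CPM for Sham and 751 ± 76.2 CPM for MR. Of the 5 genes of this group, Pdlim3 had the lowest level and the only unadjusted p under 0.05.

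No costamere or intermediate filament member was lower or higher at unadjusted p. Synm, synemin, an intermediate filament protein that partners desmin, stood at 9.24, 10.3, 13.6 and 10.6 CPM over Sham replicates 1 to 4, and 11.8, 12.8, 13.3 and 12.4 CPM over MR replicates 1 to 4. Sham replicate 3 was the highest of all, and the log2 difference was 0.20 (SE 0.110, adjusted p = 0.415), or 0.32 without that library (adjusted p = 0.0641) and 0.12 without Sham replicate 1. Actn1, the non-muscle alpha-actinin, stood at 24.6, 23.4, 23.9 and 25.8 CPM over Sham replicates 1 to 4, and 25.9, 25.3, 27.4 and 26.0 CPM over MR replicates 1 to 4. The MR values began just below the highest Sham value, with a log2 difference of 0.10 (SE 0.0669, adjusted p = 0.518). Smpx, a small stretch-associated muscle protein, stood at 285, 243, 226 and 251 CPM over Sham replicates 1 to 4, and 232, 245, 229.7 and 228 CPM over MR replicates 1 to 4. Its groups overlapped, with a log2 difference of −0.11 (SE 0.0782, adjusted p = 0.567). Des, desmin, the main intermediate filament of cardiomyocytes, stood at 1222 ± 83.8 CPM for Sham and 1192 ± 27.4 CPM for MR. Vcl, vinculin, which links actin to adhesion sites, stood at 82.1 ± 12.5 CPM for Sham and 84.4 ± 13.2 CPM for MR. Cmya5, myospryn, a costamere protein that binds desmin, stood at 853 ± 131 CPM for Sham and 874 ± 103 CPM for MR. Exons of Vcl share 2090 bases with Ap3m1 and those of Cmya5 share 2451 bases with A630019I02Rik, each on the opposite strand, so these values are uncertain. A further 10 members share 60 to 426 bases with a given neighbour.

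The 2 M-band members had unlike values. Myom2 (ENSMUSG00000031461, chr8:15057653-15133541, plus strand) encodes M-protein, a crosslinker of the thick filament lattice. Its level was 1269, 1412, 1582 and 2018 CPM over Sham replicates 1 to 4, and 1155, 987, 1302 and 794 CPM over MR replicates 1 to 4. MR replicate 3 lay just above Sham replicate 1, and MR replicate 4 was the lowest library. MR minus Sham in log2 units was −0.57 (SE 0.166, adjusted p = 0.135) and was the largest in size among the tested members. Among the tested members only Tnnt1 had a larger coefficient of variation in Sham. Myom1, which encodes myomesin, the crosslinker of every striated muscle, stood at 1500, 1743, 1573 and 1597 CPM over Sham replicates 1 to 4, and 1633, 1507, 1597 and 1565 CPM over MR replicates 1 to 4. The groups overlapped over a narrow range, with a log2 difference of −0.03 (SE 0.0739, adjusted p = 0.916).

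Ratios of 2 relatives within a library need no scaling between libraries. Of 5 ratios of a relative to its partner, none passed 0.05 after adjustment over the 5 in an exact two-sided permutation test, whose smallest p with 70 arrangements is 0.0286. A single ratio at that smallest p could not pass after this adjustment, so the test could not decide on 1 ratio alone. Reads of Mybpc2 as a percentage of those of Mybpc3 were 0.547, 0.535, 0.647 and 0.531 over Sham replicates 1 to 4, and 0.649, 0.810, 0.866 and 0.845 over MR replicates 1 to 4. The MR values all lay above the Sham values, though MR replicate 1 and Sham replicate 3 were nearly level. The mean log2 ratio was 0.48 higher in MR (exact permutation p = 0.0286, adjusted p = 0.0952). Reads of Myom2 as a percentage of those of Myom1 were 84.6, 81.0, 101 and 126 over Sham replicates 1 to 4, and 70.8, 65.5, 81.5 and 50.7 over MR replicates 1 to 4. Only MR replicate 3 reached the lowest Sham value, and the mean log2 ratio differed by −0.55 (exact permutation p = 0.0571, adjusted p = 0.0952). Reads of Tnnt1 as a percentage of those of Tnnt2 averaged 0.180% ± 0.0202 in Sham and 0.218% ± 0.0231 in MR (SD, n = 4), a log2 difference of 0.28 (exact permutation p = 0.0571, adjusted p = 0.0952). The ratio of Tnni1 to Tnni3 rests on 2 to 14 Tnni1 reads per library (log2 difference 1.05, exact permutation p = 0.114, adjusted p = 0.143), and its log2 difference was 0.67 with 5 added to each count and 0.69 without Sham replicate 2. The ratio of Actn1 to Actn2 differed by 0.11 (exact permutation p = 0.171, adjusted p = 0.171), and by 0.056 without MR replicate 3. Tnni1 and Tnnt2 are neighbours on chromosome 1, as are Tnnt1 and Tnni3 on chromosome 7, so that each pairing of a troponin T with a troponin I gene joins a cardiac and a slow skeletal form.

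A further 4 ratios were chosen after the values were seen and are given with no test. Reads of Tnnt2 per read of Tnnc1 were 3.34, 3.64, 3.24 and 3.83 over Sham replicates 1 to 4, and 3.11, 2.54, 2.57 and 2.81 over MR replicates 1 to 4. Reads of Tnni3 per read of Tnnc1 were 1.97, 2.17, 1.93 and 2.23 over Sham replicates 1 to 4, and 1.73, 1.62, 1.52 and 1.77 over MR replicates 1 to 4. Reads of Myl2 per read of Myl3 were 1.501, 1.62, 1.55 and 1.63 over Sham replicates 1 to 4, and 1.35, 1.34, 1.33 and 1.28 over MR replicates 1 to 4. In each of these 3 ratios every MR value lay below every Sham value, and Sham replicate 1 lay inside the Sham range or at its lower end. Tnnt2, Tnni3 and Myl2 were already known to be lower in MR at unadjusted p and their partners not, so these ratios are no separate support. Reads of Tnnt2 per read of Tnni3 were 1.69, 1.67, 1.68 and 1.72 over Sham replicates 1 to 4, and 1.80, 1.57, 1.69 and 1.59 over MR replicates 1 to 4, where the groups overlapped. All of these genes have transcripts under 2000 bases.

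**Figure D3:**
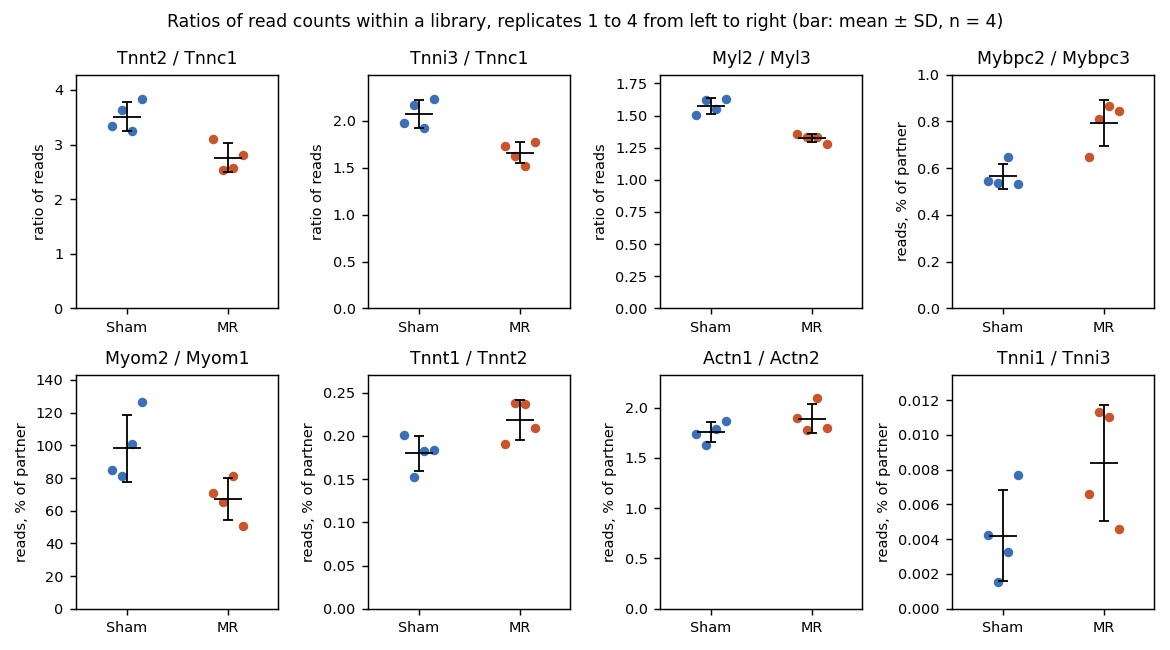
Each panel gives the ratio of the read counts of 2 members in the 4 Sham and the 4 MR libraries as points (upper row: the first 3 as a plain ratio; the other 5 as a percentage), with the mean and SD as a bar and the axis from 0. The first 3 ratios were chosen after the values were seen and were not tested. The MR points of Tnnt2 / Tnnc1, Tnni3 / Tnnc1 and Myl2 / Myl3 lie below all Sham points, and those of Mybpc2 / Mybpc3 above them.

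Total counts ran from 42291511 to 58658094 per library, and 3 counts, the limit that a count of 0 allows, equal 0.0502 to 0.0711 CPM, for counting error only. Sham replicate 1 stood apart by transcript length. Across the 39 members, which share each library and are no replicates, the deviation of Sham replicate 1 from the mean of all libraries had a Pearson r of −0.80 with log2 transcript length, and the r of the other libraries lay between −0.39 and 0.46. In that library the median deviation was 0.30 (log2) for the 14 members under 2000 bases and −0.23 for the 12 over 4000 bases, beside 0.16 and −0.13 for all genes tested of those lengths. Of the 6 members lower at unadjusted p, 4 have transcripts under 2000 bases (Tnnt2, Tnni3, Myl2 and Tcap). Without Sham replicate 1 the log2 difference of Tnnt2 was −0.28, of Tnni3 −0.26, of Myl2 −0.24 and of Tcap −0.25. With the length trend removed these 4 were lower in MR too, by the values given with each gene. That trend was fitted over all tested genes with a known length. Among short transcripts in Sham replicate 1 those genes deviated less (0.16) than the members (0.30), so its removal may be partial. The part of length in these differences was not tested. The coefficient of variation had a median of 10.1% in Sham and 7.51% in MR over the tested members.

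**Figure D4:**
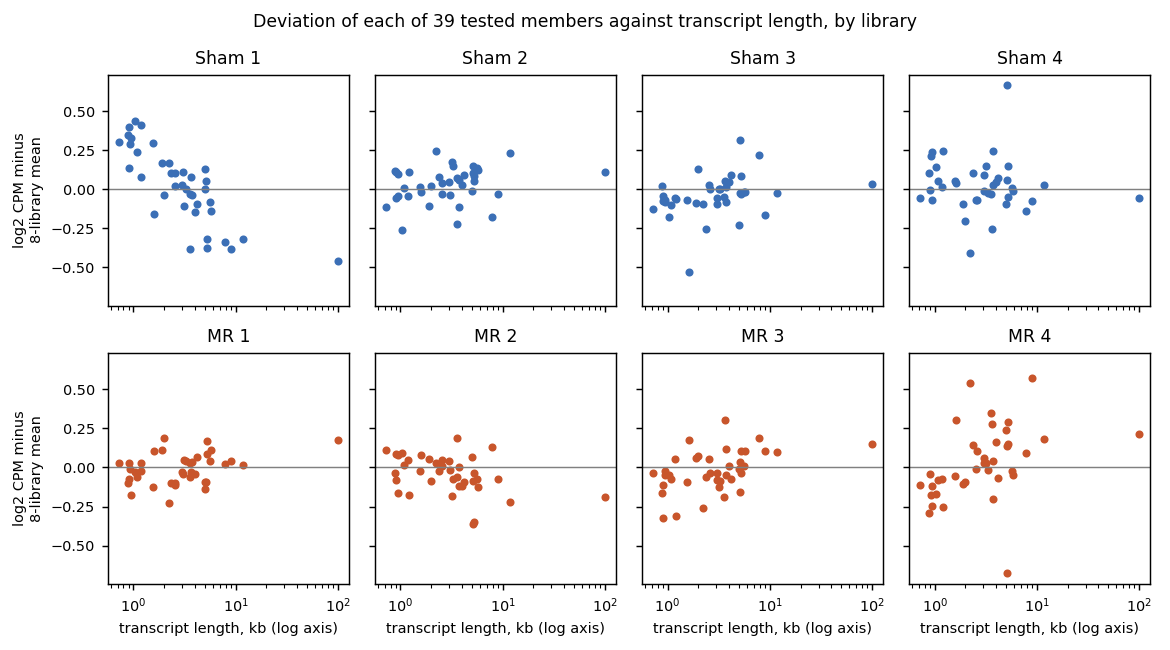
Each panel gives, for 1 library, the log2 CPM of each of the 39 tested members minus its mean over the 8 libraries (vertical axis) against transcript length in kilobases (log axis). The points of Sham 1 slope downwards, with r of −0.80, while the other libraries have r between −0.39 and 0.46.

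Of 49 other sarcomere genes, from a list of myosin, actin, troponin, tropomyosin and associated genes chosen with earlier results known, 48 were tested and none passed the adjusted threshold in edgeR (0.458% of all genes did). At unadjusted p 5 were lower (10.4%, beside 7.29% of all genes tested) and 11 higher (22.9%, beside 7.78%), with a median log2 difference of 0.08. The 4 with the lowest p are named. Ankrd23, an ankyrin repeat protein that binds titin, averaged 3.85 ± 0.845 CPM for Sham and 6.10 ± 0.640 CPM for MR (log2 difference 0.67, adjusted p = 0.0650). Xirp2, an actin-binding Xin repeat protein, averaged 557 ± 105 CPM for Sham and 824 ± 92.7 CPM for MR (log2 difference 0.57, adjusted p = 0.0678). Ankrd1, another titin-binding ankyrin repeat protein, averaged 881 ± 227 CPM for Sham and 1594 ± 323 CPM for MR (log2 difference 0.85, adjusted p = 0.0697). Fhod3, a formin that builds sarcomeric actin, averaged 343 ± 35.4 CPM for Sham and 271 ± 13.9 CPM for MR (log2 difference −0.34, adjusted p = 0.0768). DESeq2, which called 3.77% of all genes, called all 4 of these genes. Of the list it also called Acta1 (edgeR log2 difference 1.80, DESeq2 adjusted p = 0.000191), Lmod3 (0.26, 0.0376) and Dmd (0.36, 0.0372), all higher in MR. In edgeR with the length trend removed, the adjusted p was 0.0431 for Ankrd23, 0.0276 for Xirp2, 0.0239 for Fhod3 and 0.105 for Ankrd1. In that setting 162 of 16556 genes passed.

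Markers of other cells were read beside the members. Of 16 cardiomyocyte markers outside the sarcomere, 3 were lower (18.8%, beside 7.29% of all genes tested) and 1 was higher (6.25%, beside 7.78%) at unadjusted p, and their summed level was 32167 to 35694 CPM in Sham and 29961 to 33477 CPM in MR. Their log2 difference was negative for 13 and positive for 3, with a median of −0.06. Of 10 fibroblast markers, Col1a1 (log2 difference 0.81, adjusted p = 0.0483) and Col1a2 (0.63, adjusted p = 0.0159) rose, the other 8 did not pass, and the summed level of the list did not overlap, at 1986 to 2062 CPM in Sham and 2113 to 2306 CPM in MR. The higher sum lay mostly with the collagens Col1a1, Col1a2 and Col3a1, the last at a mean of 111 CPM in Sham and 220 CPM in MR. Dcn averaged 544 and 539 CPM and Gsn 922 and 907 CPM. Of the list, 6 log2 differences were positive and 4 negative. At unadjusted p 5 fibroblast markers were higher (50%, beside 7.78% of all genes tested) and 0 lower. The summed level of 10 endothelial markers was 921 to 1084 CPM in Sham and 1060 to 1131 CPM in MR, and that of 10 macrophage markers 375 to 415 and 414 to 456 CPM. Smooth muscle markers summed to 394 to 422 CPM in Sham and 374 to 470 CPM in MR, and conduction system markers to 67.6 to 83.5 and 60.9 to 74.7 CPM. On the unadjusted scale 2 endothelial markers were higher (20%) and 0 lower, and 3 macrophage markers were higher (30%) and 1 lower (10%). Of smooth muscle markers 1 was higher (12.5%) and 2 lower (25%), and of conduction system markers 1 was higher and 1 lower (11.1% each). Of all genes tested, 7.78% were higher and 7.29% lower. The part of these differences in the members' values was not tested. Of 12 atrial markers 11 were tested, 1 was lower and 1 higher at unadjusted p, and the median log2 difference was 0.40. They summed to 617 to 705 CPM in Sham and 695 to 733 CPM in MR, most of it Clu. Nppa, the atrial natriuretic peptide, was the higher one, at 41.95 to 65.7 CPM in Sham and 81.4 to 205 CPM in MR (log2 difference 1.17, edgeR adjusted p = 0.204, DESeq2 adjusted p = 0.0400). The atrial light chain Myl4 was at 1.35 to 7.48 CPM in Sham and 4.07 to 7.77 CPM in MR, and Myl7 at 0.355 to 4.90 and 1.73 to 4.43 CPM. Bmp10 was at 0 in all Sham libraries and had at most 6 counts in an MR library. Of 15 skeletal muscle markers 8 were tested, 7 of them with a positive log2 difference (median 0.31), and only Tnnt3 was past unadjusted p, higher in MR. Tnnt3, the fast skeletal troponin T, averaged 0.253 ± 0.134 CPM for Sham and 0.548 ± 0.119 CPM for MR (SD, n = 4, log2 difference 1.103, adjusted p = 0.176). Tnni2, the fast skeletal troponin I, averaged 0.727 ± 0.366 CPM for Sham and 1.12 ± 0.232 CPM for MR (SD, n = 4, log2 difference 0.62, adjusted p = 0.392). The list summed to 11.2 to 21.1 CPM in Sham and 17.4 to 22.0 CPM in MR, of which Neb and Casq1 held the most. The skeletal myosins Myh1, Myh2, Myh4 and Myh8 had 0 to 7 counts per library, and Tnnc2 had 0 in all 8. The part of the atrial and skeletal markers in the values of Mybpc2 and the other members was not tested.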

How the data were processed

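Libraries were made from powdered frozen heart with TRIzol and an ABclonal mRNA kit, per the labels' protocols. The authors deposited whole-number read counts per Ensembl gene, not normalized. The submitters' processing notes name HISAT2 2.0.5 and the build mm10. For the counting tool, the annotation and the use of strand, nothing is given in the sources used here. Groups came from the treatment label. The labels do not state separate animals, so p-values measure the spread between libraries, which may be technical. A GENCODE annotation of GRCm38 was used for symbols and lengths, and it gave a symbol for 32350 identifiers.

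Genes were filtered with filterByExpr (minimum count 10, minimum total count 15), scaled by TMM (0.967 to 1.019) and tested with the quasi-likelihood F test with robust moderation of edgeR 4.0.16 in R 4.3.3, with Benjamini-Hochberg adjustment over 16603 genes and a false discovery rate of 0.05. Every adjusted p of a gene comes from this test unless another is named. The procedure was tested on counts simulated from the means, library sizes and spread of these data. It recovered 4 of 50 genes changed 1.25-fold, 31 of 50 at 1.5-fold, 35 of 50 at 2-fold and 44 of 50 at 3-fold. Of its 121 calls 7 were false. Most changes of 1.25-fold were thus missed in the simulation. The changed genes were drawn at random from all tested genes, so the rates are not those of the members. Each gene was simulated independently, without the length trend of Sham replicate 1. Ratios (0.5 added to each count) were compared by exact permutation. Alternatives were RLE scaling, library totals, no filter, a 1 CPM filter, DESeq2 1.42.0, limma-voom with library quality weights (limma 3.58.1), no robust moderation and each library left out. Removal of a length trend (lowess, span 0.3) was added after seeing the data. The members and lists were chosen with earlier results of these data known. Full values are given for the 3 members of each compartment with the lowest p, both M-band members, titin and both genes of each ratio, and of other sarcomere genes the 4 with the lowest p are named.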

Additional observations from a re-analysis of the deposited data

Results flagged for a closer look

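Of 90 groups of 4 values screened, 11 held a library far from the other 3, where chance alone flags about 1 group in 20. Sham replicate 1 was the distant library in 5 of them. Its Tnnc1 level was 1934 CPM against 1432 to 1506 in the other Sham libraries. Its Tpm1 level was 7665 CPM against 6324 to 6407, and its Myl3 level was 5335 CPM against 4111 to 4221. Its Mybpc3 level was 2734 CPM against 3078 to 3120, and its Synpo2l level was 106 CPM against 120 to 122. The 3 genes with high values have short transcripts and the 2 with low values longer ones.

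In Sham replicate 2 Unc45b was at 163 CPM against 150 to 152, and Smyd1 at 639 CPM against 568 to 578. In Sham replicate 3 Fhl1 was at 91.6 CPM against 116 to 118, and the log2 ratio of Mybpc2 to Mybpc3 was −7.27 against −7.56 to −7.51. In MR replicate 1 Mybpc3 was at 3058 CPM against 2743 to 2793. In MR replicate 2 Vcl was at 64.8 CPM against 88.6 to 92.7.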

How the results depend on the processing

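The count of 0 changed members depended on the test and the libraries. It was 7 with no filter (5 lower, 2 higher), 5 with DESeq2 (4 lower, 1 higher) and 0 to 5 with each library left out (0 to 4 lower, 0 to 1 higher), where the 5 came without Sham replicate 3. It stayed at 0 with RLE scaling, library totals, a 1 CPM filter, limma-voom, no robust moderation and the length trend removed. The thick filament median was −0.024 with library totals, and titin's value was −0.13 with the length trend removed. With each library left out the thin filament median ranged from −0.14 to 0.029 and the costamere median from −0.028 to 0.11. Ttn, at 0.17, turned to −0.13 with the length trend removed. The other signs that turned, among members with full values in the text, belong to values of −0.10 to −0.0042. Library totals gave 0.032 for Tnnc1, 0.040 for Actn2 and 0.019 for Myom1, limma-voom gave 0.018 for Tnnt1 and 0.058 for Tnnc1, and the length trend removal gave 0.044 for Tnnc1. With each library left out Tnnt1 ranged from −0.19 to 0.043, Tnnc1 from −0.060 to 0.092, Myl3 from −0.096 to 0.035, Actn2 from −0.026 to 0.022 and Myom1 from −0.062 to 0.017. The log2 ratio difference ranged from 0.69 to 1.38 for Tnni1 to Tnni3, 0.056 to 0.14 for Actn1 to Actn2, 0.20 to 0.34 for Tnnt1 to Tnnt2, 0.44 to 0.58 for Mybpc2 to Mybpc3 and −0.65 to −0.42 for Myom2 to Myom1. The causes were not tested. The 9 members at an unadjusted p under 0.05 kept their sign in all 16 alternatives. They were picked by p from the same counts, so this is no separate support. Over the alternatives, 5 to 7 members were lower and 2 to 4 higher at unadjusted p. No paired analysis was possible because the labels give no replicate numbers shared between the groups. Depth limits Tnni1, at 2 to 14 counts per library.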
